A study of Homo sapiens with 12 samples.

Results

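The genes described here are 6 transcription factors of the circadian clock: the activators ARNTL, CLOCK and NPAS2, and the output factors DBP, TEF and NFIL3 of the basic leucine zipper (bZIP) family. They were picked by symbol for their roles in the clock, with the outcome of both comparisons of the series already known, so their changes are given as a description. All 6 were listed in both deposited tables, where 13554 genes were listed for GPD1L knockdown and 13583 for its overexpression. The cells were SW480, an established human line from an adenocarcinoma of the colon, carrying 1 of 4 stable constructs: a control hairpin (shNC), a hairpin against GPD1L (shGPD1L), an empty overexpression vector (Vector) or a GPD1L overexpression vector (OE). GPD1L encodes an enzyme related to glycerol-3-phosphate dehydrogenase, and each line was profiled in 3 poly(A) RNA libraries. The labels name neither the hairpin sequence, the promoter of the vector, nor whether a line was a clone. The genotype of some replicates reads shGPD2L or shGPD3L, and overexpression genotypes are numbered likewise. Both are taken here as a slip of numbering. The labels give no hour of harvest and no step that sets the cells to a common clock phase. A shift of phase and a shift of level therefore cannot be told apart.

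In the circadian clock, the protein of ARNTL (also called BMAL1) pairs with that of CLOCK, or with its relative NPAS2, and the pair activates genes that carry E-box sequences. Among these are the repressors of the PER, CRY and REV-ERB families, which feed back on the pair or on ARNTL transcription, and the output factors DBP and TEF. DBP and TEF belong to the PAR group of bZIP factors and activate genes through D-box sequences. NFIL3 (also called E4BP4) binds the same sequences as a repressor, so that the balance of these factors is known to set the transcription of D-box genes.

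The promoters of DBP and TEF are shown because both genes were higher in OE and both are known targets of the activator pair. The windows were the 250 bases before each RefSeq start (build GRCh38.p14), of which there were 10 for the 6 genes, with ARNTL found as BMAL1. Only the stretch outside exons annotated in GENCODE is printed. The searched motifs were the E-box CACGTG, its variant CACGTT, a loose D-box TTANNTAA and TAGGTNA, a core of the element bound by REV-ERB and ROR proteins, all on both strands and without overlap between the matches, which are in capitals. The printed stretches are chr19:48637439-48637629 on the minus strand for DBP, chr22:41367205-41367332 on the plus strand for the upstream TEF start, and chr22:41381692-41381928 on the plus strand for the downstream TEF start.
DBP: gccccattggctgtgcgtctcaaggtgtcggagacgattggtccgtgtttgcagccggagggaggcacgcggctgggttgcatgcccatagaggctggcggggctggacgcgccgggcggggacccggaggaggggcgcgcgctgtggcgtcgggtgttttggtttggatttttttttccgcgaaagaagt
TEF upstream: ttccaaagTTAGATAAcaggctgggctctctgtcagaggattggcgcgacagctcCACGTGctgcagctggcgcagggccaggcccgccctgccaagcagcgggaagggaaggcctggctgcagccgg
TEF downstream: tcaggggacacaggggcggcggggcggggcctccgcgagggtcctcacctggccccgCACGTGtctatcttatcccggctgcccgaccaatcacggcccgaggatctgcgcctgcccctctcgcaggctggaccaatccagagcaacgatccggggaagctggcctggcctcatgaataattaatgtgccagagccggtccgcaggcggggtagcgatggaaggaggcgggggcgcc
Each TEF stretch holds CACGTG, at positions -195 and -193 from its start, and the upstream one also holds TTAGATAA. None of the 4 motifs is in the DBP window, and bases outside the windows were not searched for any gene. Of all 35116 RefSeq promoter windows of this length 6.34% hold CACGTG, 4.55% CACGTT, 5.23% TTANNTAA and 5.61% TAGGTNA. TEF was the 1 gene of the 6 with CACGTG in a window, in both of its windows. CLOCK had CACGTT in 1 window, ARNTL had TTATTTAA in 1 window, and NFIL3 had TGACCTA, the reverse of TAGGTNA, in 1 window at position -9. NPAS2 had no match. A match is a description of the letters and shows no binding.

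Values are in FPKM, which counts fragments relative to transcript length and to all mapped fragments. Changes are treated minus control on the log2(FPKM + 1) scale, which understates the change of low genes. A gene is called where limma, fitted across all genes of a table, gives a Benjamini-Hochberg adjusted p under 0.05. GPD1L itself was at 8.01 to 9.10 FPKM in shNC, 1.26 to 2.23 in shGPD1L, 10.2 to 11.1 in Vector and 22.1 to 22.8 in OE, as the labels state. Library sums of the listed values ran from 421714 to 444794 FPKM, and read depth is unknown. On the first principal component of the knockdown table shGPD1L replicate 3 lay at 29.1 and the other 5 libraries between -12.1 and 0.319, so the knockdown changes of the 6 genes, and the counts, medians and differences built on them, are given with and without it. Of 9 epithelial and colon markers 8 were listed in the knockdown table, all but KRT20, and 9 in the overexpression table. Their summed level ran from 5077 to 5439 FPKM in shNC, 4217 to 4494 in shGPD1L, 3800 to 3909 in Vector and 4151 to 4282 in OE. Most of this sum comes from the keratins KRT8, KRT18 and KRT19, which were called higher in OE (log2 changes 0.15, 0.21 and 0.30), while EPCAM (-0.21), CDH1 (-0.31), VIL1 (-0.52), CDX1 (-0.70) and CDX2 (-0.59) were called lower there. In the knockdown 0 of the 8 were called by limma and 4 had an unadjusted p under 0.05 (KRT8, KRT18, KRT19 and VIL1, all lower), with changes from -0.36 (VIL1) to 0.02 (CDX1). The part of these markers in the results was not tested. Of 4 leukocyte markers 1 (CD14) was listed, summing to between 0.629 and 2.69 FPKM over the 12 libraries, and 0 of 3 endothelial markers were listed. Of 4 fibroblast markers 2 were listed (COL1A1 and PDGFRB), at 1.15 to 2.31 FPKM in sum. Whether the 3 libraries of a line stem from separate cultures is not stated in the labels, and limma's p-values then measure only the spread between these libraries, which may be technical. As these are bulk samples, fewer cells with a transcript and less of it per cell cannot be told apart.

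DBP was higher in both manipulated lines, in the one with less GPD1L as in the one with more. TEF and CLOCK rose and NPAS2 and NFIL3 fell with overexpression, while ARNTL was not called in either comparison. In the knockdown ARNTL and CLOCK lay below their controls in every library without being called. A total of 1 of the 6 genes was called in the knockdown, higher, where 0.592% of all 12156 tested genes were called (0.115% higher and 0.477% lower). Without shGPD1L replicate 3 the count was 3 of 6, 1 higher and 2 lower, where 5.01% of all genes were called (1.80% higher and 3.21% lower). In the overexpression 5 of 6 were called, 3 higher and 2 lower, where 22.4% of all 12208 tested genes were called (12.2% higher and 10.3% lower). The groups did not overlap for 3 of the 6 in the knockdown, 1 higher and 2 lower, as for 24.7% of all genes (9.54% higher and 15.1% lower). Without that library it was 4 of the 6, 2 higher and 2 lower, as for 42.6% of all genes. In the overexpression they did not overlap for 5, 3 higher and 2 lower, as for 41.8% of all genes (24.2% higher and 17.6% lower). The median change of the 6 was -0.13 in the knockdown and 0.18 in the overexpression, and that of all tested genes was -0.04 and 0.02. The knockdown medians without shGPD1L replicate 3 were -0.23 for the 6 and -0.01 for all genes. Because the genes were chosen with both outcomes known, nothing is read from these counts. All 6 had passed the filter of a mean of at least 1 FPKM in both tables.

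**Figure D1:**
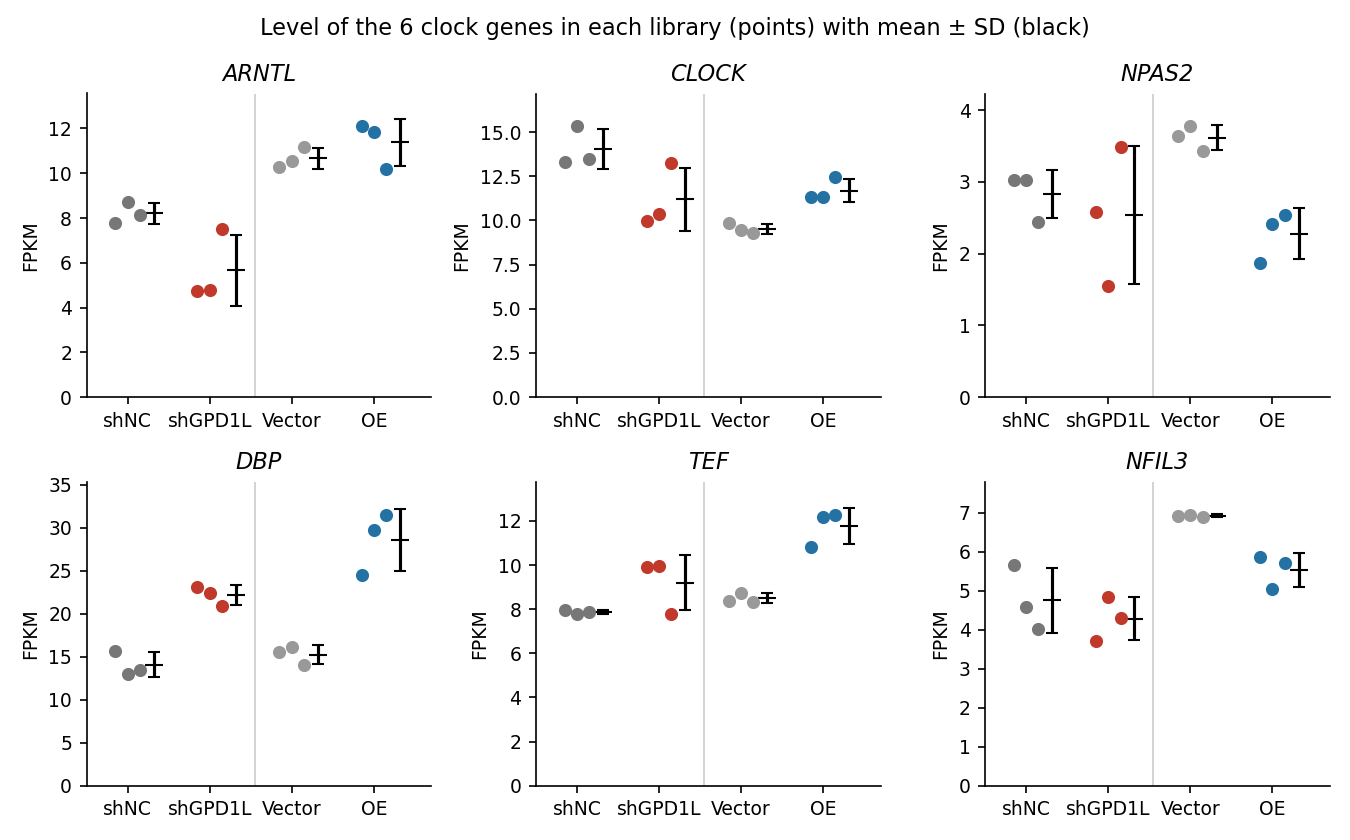
FPKM (y axis, from 0) of each gene in the 3 libraries of each group (points), with the mean and SD (black bars); the grey line parts the 2 tables. DBP lies above its control in every shGPD1L and OE library, and shGPD1L replicate 3 (the rightmost red point) lies nearest to, or within, the shNC range for ARNTL, CLOCK and TEF.

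Among the activators, ARNTL (ENSG00000133794, GRCh38 chr11:13276652-13387266, plus strand), the shared partner in the activator pair, was at 7.78, 8.72 and 8.15 FPKM in shNC and at 4.73, 4.79 and 7.50 FPKM in shGPD1L. The groups did not overlap, but replicate 3 lay close to the lowest control. The means were 8.22 ± 0.473 and 5.67 ± 1.58 FPKM (SD, n = 3 each). The log2 change of -0.49 (SE 0.156) was not called. Without shGPD1L replicate 3 it was called lower, at -0.68 (SE 0.083). With overexpression it was at 10.3, 10.6 and 11.2 FPKM in Vector and 12.1, 11.9 and 10.2 FPKM in OE. These groups overlapped, OE replicate 3 being the lowest of the 6, and the log2 change of 0.08 (SE 0.0739) was not called.

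CLOCK (ENSG00000134852, chr4:55427903-55547138, minus strand), the histone acetyltransferase-bearing partner of ARNTL, was at 13.3, 15.3 and 13.5 FPKM in shNC. In shGPD1L it was at 9.99, 10.4 and 13.2 FPKM, the third library lying just under the lowest control. The log2 change of -0.31 (SE 0.119) was not called, and without replicate 3 CLOCK was called lower at -0.43 (SE 0.084). Overexpression went the other way, from 9.84, 9.44 and 9.31 FPKM in Vector to 11.3, 11.3 and 12.5 FPKM in OE. Every OE library was above every Vector library, and CLOCK was called higher with a log2 change of 0.27 (SE 0.0609), a ratio of means of 1.23. This call ended without Vector replicate 2 (log2 change 0.26) or without OE replicate 3 (0.22). CLOCK overlaps TMEM165 on the other strand, with 76 shared exonic bases, 0.646% of its own exonic length. TMEM165 was called in neither comparison, with log2 changes of -0.12 (-0.05 without shGPD1L replicate 3) and -0.15. In the overexpression its groups did not overlap, at 60.7 to 66.7 FPKM in Vector and 56.0 to 59.4 FPKM in OE.

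NPAS2 (ENSG00000170485, chr2:100820152-100996829, plus strand), which can take the place of CLOCK beside ARNTL, had the lowest mean of the 6 in all 4 groups. Its shNC values of 3.03, 3.03 and 2.44 FPKM and its shGPD1L values of 2.58, 1.56 and 3.49 FPKM overlapped. The log2 change of -0.15 (SE 0.198) was not called, and it was 0.07 without shGPD1L replicate 2, so its direction rests on that library. Without shGPD1L replicate 3 it was -0.34 (SE 0.162), also not called. In Vector it was at 3.64, 3.78 and 3.44 FPKM and in OE at 1.88, 2.42 and 2.54 FPKM, without overlap. NPAS2 was called lower at a log2 change of -0.50 (SE 0.0978), a ratio of means of 0.630, in the same libraries in which its paralog CLOCK was higher.

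Of the output factors, DBP (ENSG00000105516, chr19:48630030-48637438, minus strand), an activator of D-box genes, had the highest mean of the 6 in every group. Its libraries overlapped those of the next gene only in shNC, where that gene was CLOCK. It was at 15.7, 13.0 and 13.5 FPKM in shNC and at 23.2, 22.4 and 20.9 FPKM in shGPD1L. Each knockdown library, replicate 3 included, was above each control. Its mean rose 1.58-fold, from 14.1 ± 1.46 to 22.2 ± 1.14 FPKM (SD, n = 3 each). DBP was called higher, with a log2 change of 0.62 (SE 0.0946). Without shGPD1L replicate 3 the change was 0.66 and the call was kept. The call ended without any 1 of the other 5 libraries, with the change between 0.57 and 0.70, with the replicate block and without the intensity trend.

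With overexpression DBP was at 15.5, 16.2 and 14.1 FPKM in Vector and at 24.6, 29.7 and 31.6 FPKM in OE. The groups lay far apart, and the OE libraries were spread more widely than the Vector libraries. The mean rose 1.88-fold, from 15.3 ± 1.07 to 28.6 ± 3.63 FPKM (SD, n = 3 each), with a log2 change of 0.86 (SE 0.0932). This gene was called higher in all 15 alternative settings of the overexpression, with changes from 0.79 to 0.96. The difference of its changes, overexpression minus knockdown, was 0.24 (SE 0.139).

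DBP shares 688 bases with SPHK2, a sphingosine kinase gene on the other strand, of which 661 are exonic in both. They make up 10.1% of the exonic length of DBP and 11.0% of that of SPHK2, and the labels describe no strand-keeping step, so reads of the overlap may not have been separated. SPHK2 was at 11.3, 11.4 and 10.7 FPKM in shNC and at 11.9, 11.6 and 9.61 FPKM in shGPD1L, a log2 change of -0.01 (SE 0.0979) that was not called. Without shGPD1L replicate 3 it was 0.07 (SE 0.0711), also not called, although both remaining libraries were above the controls. In the overexpression SPHK2 was called lower, with means of 8.71 ± 0.396 (Vector) and 7.45 ± 0.248 FPKM (OE; SD, n = 3 each) and a log2 change of -0.20 (SE 0.0613). SPHK2 was called higher in neither of the comparisons in which DBP was. Reads of the overlap were not counted apart, so their part in the DBP values was not tested. The ratio of DBP to SPHK2 within a library ran from 1.14 to 1.40 in shNC and 1.93 to 2.18 in shGPD1L, and from 1.69 to 1.86 in Vector and 3.30 to 4.13 in OE.

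TEF (ENSG00000167074, chr22:41367333-41399326, plus strand), the other PAR bZIP activator, was at 7.95, 7.80 and 7.86 FPKM in shNC and at 9.89, 9.94 and 7.77 FPKM in shGPD1L. The first 2 knockdown libraries were above all controls and the third was below them. The log2 change of 0.19 (SE 0.106) was not called, nor was the 0.30 (SE 0.0711) without replicate 3. In Vector TEF was at 8.39, 8.75 and 8.35 FPKM and in OE at 10.8, 12.2 and 12.3 FPKM, every OE library being higher. It was called higher with a change of 0.43 on the log2 scale (SE 0.0647), a ratio of means of 1.38, and in all 15 alternative settings.

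NFIL3 (ENSG00000165030, chr9:91409045-91423862, minus strand), the D-box repressor, was at 5.67, 4.58 and 4.02 FPKM in shNC and at 3.72, 4.84 and 4.30 FPKM in shGPD1L. These groups overlapped, and the log2 change of -0.12 (SE 0.134), the same without shGPD1L replicate 3, was not called. In Vector the 3 libraries lay within 6.88 to 6.96 FPKM, and in OE it was at 5.85, 5.04 and 5.72 FPKM. NFIL3 was called lower in OE at a log2 change of -0.28 (SE 0.0699), a ratio of means of 0.800. That call ended without any 1 of the Vector libraries (log2 change -0.28 each time) or without OE replicate 2 (-0.22).

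**Figure D2:**
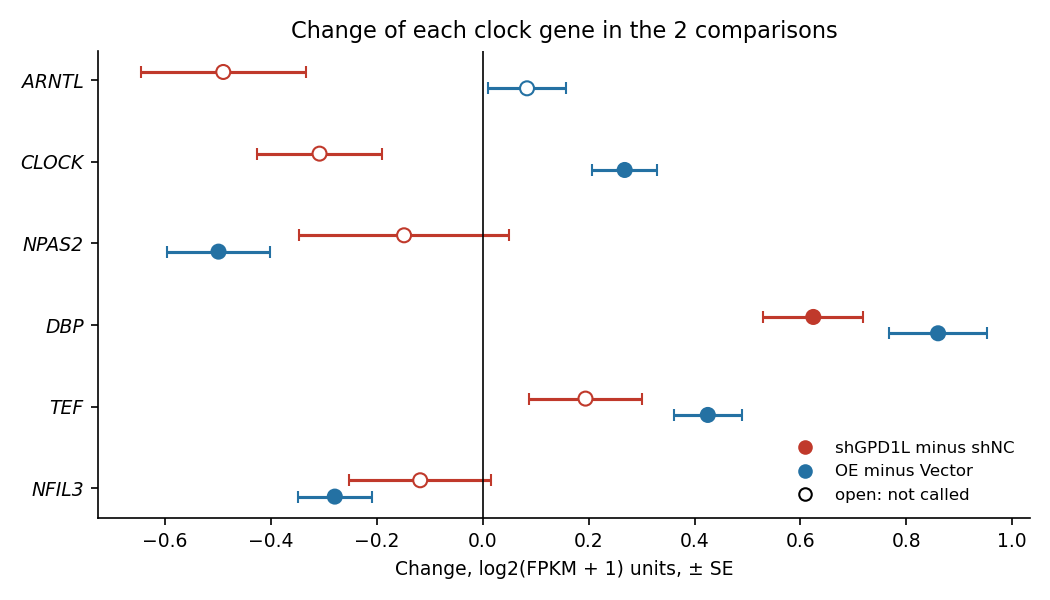
Change of each gene (x axis, log2(FPKM + 1) units, with SE) in shGPD1L against shNC (red) and OE against Vector (blue); filled points are called. DBP is the 1 gene called in both, at 0.62 and 0.86, and CLOCK is on opposite sides of 0, at -0.31 and 0.27.

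Set side by side, the changes in the knockdown and in the overexpression had the same sign for DBP, TEF and NFIL3 and opposite signs for ARNTL and CLOCK. Of these 5 genes DBP alone was called in the knockdown. NPAS2 was lower in both, but its knockdown change, not called, turned without shGPD1L replicate 2. The difference of the changes was 0.57 (SE 0.184) for ARNTL and 0.58 (SE 0.136) for CLOCK, and without shGPD1L replicate 3 it was 0.76 (SE 0.107) and 0.69 (SE 0.0986). For NPAS2 it was -0.35 (SE 0.234), for TEF 0.23 (SE 0.123) and for NFIL3 -0.16 (SE 0.153). Without that library these were -0.16 (SE 0.190), 0.13 (SE 0.0878) and -0.16 (SE 0.162), and for DBP 0.20 (SE 0.141). Below DBP the order of the levels differed between the groups. In shNC the order was DBP, CLOCK, ARNTL, TEF, NFIL3 and NPAS2, with overlap of DBP with CLOCK and of ARNTL with TEF. In shGPD1L TEF stood above ARNTL, and ARNTL overlapped NFIL3. In Vector the order was DBP, ARNTL, CLOCK, TEF, NFIL3 and NPAS2 with no overlap between neighbours. In OE TEF, CLOCK and ARNTL, at means of 11.8, 11.7 and 11.4 FPKM, overlapped between DBP above and NFIL3 below.

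Ratios of FPKM within a library do not depend on its scaling. The ratio of DBP to NFIL3, activator to repressor at D-boxes, was 2.78 to 3.35 in shNC and 4.63 to 6.24 in shGPD1L. In Vector it was 2.04 to 2.32 and in OE 4.19 to 5.90, so that it was higher in all 6 manipulated libraries than in the controls of their table. The ratio of DBP to TEF was 1.67 to 1.98 in shNC, 2.25 to 2.69 in shGPD1L, 1.69 to 1.85 in Vector and 2.27 to 2.57 in OE. It too was higher in every shGPD1L and OE library than in the controls. CLOCK over NPAS2 was 2.50 to 2.71 in Vector and 4.68 to 6.02 in OE, without overlap, whereas shNC (4.39 to 5.51) and shGPD1L (3.80 to 6.66) overlapped. The 2 control lines differed in CLOCK over ARNTL, at 1.65 to 1.76 in shNC and 0.834 to 0.957 in Vector. The controls are in separate tables, so their levels are set side by side without a test.

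**Figure D3:**
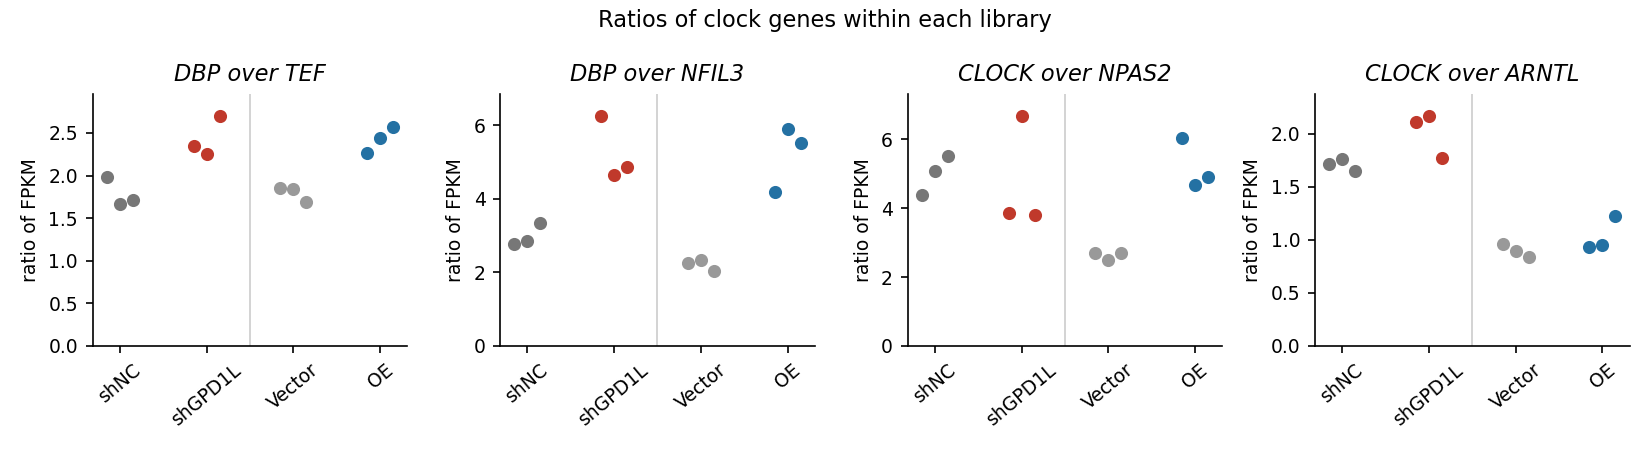
Ratio of the FPKM of 2 genes within each library (y axis, from 0), with 3 points for each group. DBP over TEF and DBP over NFIL3 are higher in every shGPD1L and OE library than in the controls of the same table.

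The profile of DBP over the 12 libraries, each taken relative to its control mean, was compared with those of all genes tested in both tables by the root mean square difference in log2 units. The nearest gene was the circadian repressor PER1, at 0.131, with changes of 0.70 in the knockdown and 0.86 in the overexpression, both called. It was followed by the prostaglandin synthase gene PTGS2 at 0.202, with changes of 0.60 (not called) and 0.79 (called), and by the sulfiredoxin gene SRXN1 at 0.224, with changes of 0.45 (not called) and 0.66 (called). TEF came at rank 38 for DBP, with a difference of 0.317. Seen from TEF, the same difference put DBP at rank 7382 among the 11208 genes compared. CLOCK was slightly nearer to TEF, at 0.313. Over the 11 libraries without shGPD1L replicate 3, PER1 (0.102) and PTGS2 (0.183) were again the nearest. There the REV-ERB gene NR1D2 (0.21) came at rank 3, SRXN1 at rank 5 and TEF at rank 15. In that fit the knockdown change of PTGS2 was 0.46 and called, and that of SRXN1 was 0.28 and not called. Nearest genes were named where a change was at least 0.5 in size at a pseudocount of 1 with all libraries. DBP met this, and NPAS2 in the overexpression, at -0.499, fell just short of it. At pseudocounts of 0.5 and 0.1 the change of NPAS2 was -0.57 and -0.65.

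Other clock genes and family relatives of the 6 genes were taken from 5 lists of 52 genes, of which 48 were listed and 45 tested in each table. The lists of bHLH-PAS relatives (7 tested) and bZIP relatives (5 tested) hold genes by family, not by a role in the clock. In the knockdown 2 of the 45 were called, 1 higher and 1 lower, against 0.592% of all genes. PER1, the repressor named above, rose from 10.7 ± 0.530 to 18.0 ± 1.78 FPKM (SD, n = 3 each). The output gene TSC22D3, a leucine zipper gene also known as a glucocorticoid target, fell from 9.96 ± 0.679 to 5.59 ± 0.650 FPKM, a log2 change of -0.74. Without shGPD1L replicate 3, 4 of the 45 were called, where 5.01% of all genes were, the other 2 being KLF10 (log2 change 0.38), a clock-controlled zinc finger factor, and RORA (-0.57), an activator of ARNTL, both named after their values were seen. Both calls, PER1 and TSC22D3, ended without any 1 of the other 5 libraries.

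In the overexpression 22 of the 45 were called, 17 higher and 5 lower, against 12.2% higher and 10.3% lower among all genes. In counts over all 12208 genes that is 1484 higher and 1256 lower. With median-of-ratios scaling 14 of the 45 were higher and 7 lower, and of all genes 1252 and 1465. With quantile normalization 13 were higher and 6 lower, and of all genes 1271 and 1293. With equal library totals 21 were higher and 5 lower, and of all genes 2441 and 977. Of 11 tested genes of the repressor limb and stabilizing loop 7 rose and 2 fell. The largest rises were those of the genes of the REV-ERB repressors of ARNTL transcription, NR1D1 (17.5 ± 0.378 to 48.9 ± 2.47 FPKM) and NR1D2 (18.8 ± 1.62 to 35.1 ± 0.482 FPKM), and of BHLHE41, an E-box repressor (3.10 ± 0.397 to 7.00 ± 0.572 FPKM; SD, n = 3 each). NR1D1 shares 9.49% of its exonic bases with THRA and BHLHE41 4.10% with SSPN, each on the other strand. CRY1, a repressor of the activator pair, fell from 19.2 ± 0.985 to 13.9 ± 0.292 FPKM. ARNTL itself, on which REV-ERB and ROR proteins act, had its change of 0.08 in these libraries.

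The counts of the other lists stand beside the 22.4% called among all genes in the overexpression, and those of the bHLH-PAS relatives (2 of 7) and of the output genes (2 of 10) are near that share. Of 12 tested regulators of clock proteins 4 rose and 1 fell. Among the rises were the deacetylase gene SIRT1 (log2 change 0.34) and the kinase gene GSK3B (0.19). SFPQ, a splicing factor reported to act with PER proteins, fell by 0.37. Of 7 tested bHLH-PAS relatives of the activators ARNT rose (0.25) and EPAS1 fell (-0.26), both partners in the hypoxia response. Of 5 tested bZIP relatives BACH1 (0.22), MAFG (0.21) and CEBPG (0.20) rose and CEBPA, a differentiation factor, fell (-0.80). The third PAR bZIP gene, HLF, was below the filter in both tables, at group means of 0.285 to 0.594 FPKM. Of 10 tested output genes NAMPT, the rate-limiting enzyme of NAD salvage, rose from 39.2 ± 2.04 to 58.3 ± 4.21 FPKM, and ALAS1, the first enzyme of haem synthesis, rose by 0.24. The other 8 were not called, among them PDXK, POR and WEE1.

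**Figure D4:**
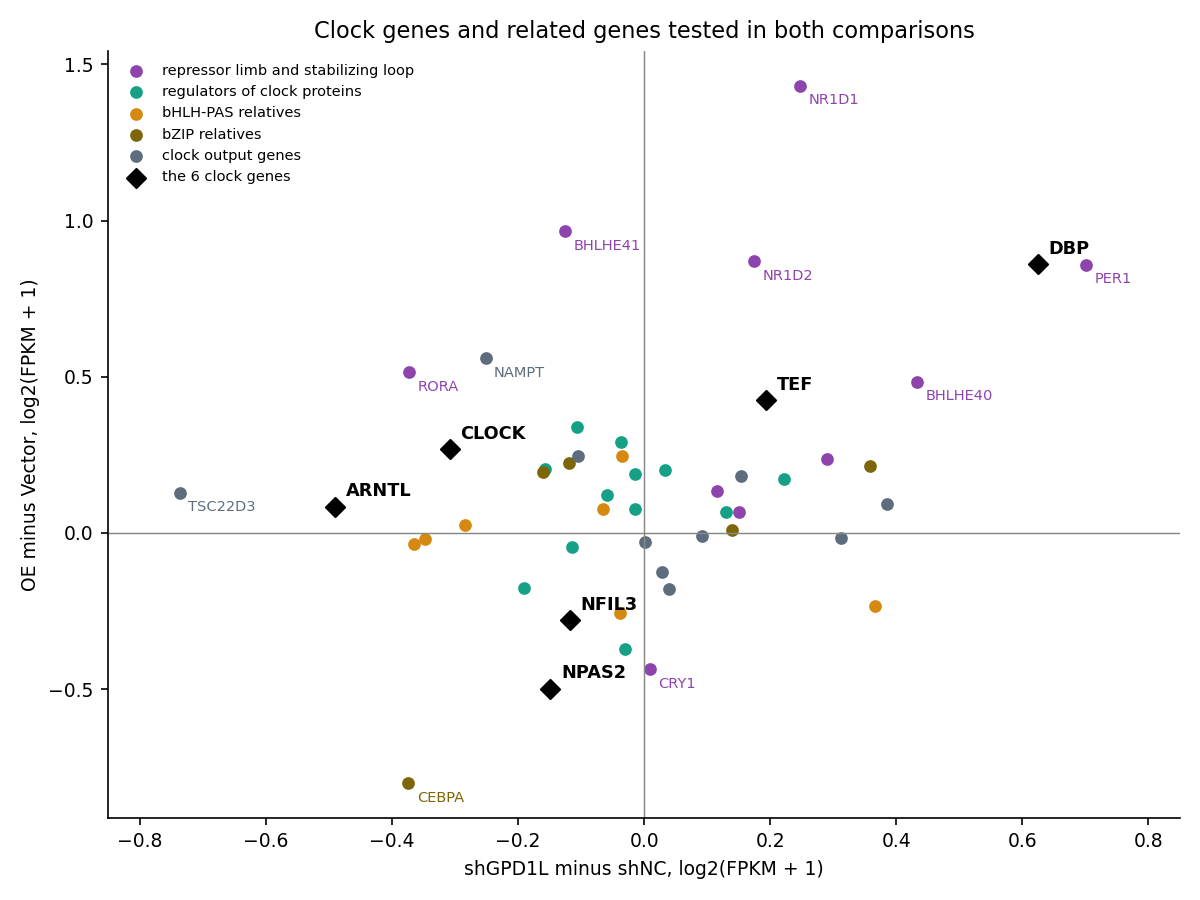
Change on the log2(FPKM + 1) scale in the knockdown (x axis) and in the overexpression (y axis) of the 6 genes (black diamonds). Coloured by list are the other clock genes and family relatives tested in both tables. DBP, at 0.62 and 0.86, lies beside PER1, at 0.70 and 0.86.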

How the data were processed

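Poly(A) RNA libraries of 12 samples in 4 groups of 3 were grouped by their titles. The authors deposited 2 tables of FPKM, 1 for each comparison, with no other per-sample columns. Per the submitters' processing notes, HISAT2, StringTie, DESeq2 and the build GRCh38 were used; their versions and the annotation release are not given. Depth is unknown, and precision is judged from the 3 libraries of a group.

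The scale was log2(FPKM + 1), and genes whose 6 libraries averaged 1 FPKM or more were kept. Treated and control libraries were compared in limma 3.58.1 under R 4.3.3, with an intensity trend and Benjamini-Hochberg adjustment at 0.05. Differences of changes come from 1 fit over the 12 libraries. The fit was tested on simulated data, with noise drawn independently for each gene and library. No outlying library was simulated there. Coordinates and overlaps come from GENCODE release 29, and promoters from RefSeq. Plots used matplotlib 3.10.9 (Python 3.11.15).

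The 6 genes and the lists were chosen with earlier results of these data known. Named are GPD1L, the 6 genes, listed genes that overlap them, per list up to 3 called rises and 3 called falls with the largest change, and the 3 genes nearest in profile to a member with a change of at least 0.5. A few genes chosen this way are left out of the text. The alternative settings were a pseudocount of 0.1 or 0.5, omitting the filter, a 5 FPKM filter, equal totals, median-of-ratios scaling and quantile normalization. The others were no trend, a replicate block, and leaving out each library. Those for the lists of other clock genes and relatives were added after seeing the data. So were the differences, medians and non-overlap counts without shGPD1L replicate 3.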

Additional observations from a re-analysis of the deposited data

How the results depend on the processing

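Of the 15 alternatives of each comparison, the count of the 6 clock genes called in the knockdown, 1, was 0 without the trend and 0 with the replicate block, and 0 to 3 when 1 library was left out. In the overexpression the count of 5 was 3 to 5 when 1 library was left out, 3 being without Vector replicate 2, and 5 with the replicate block. Of the listed other clock genes and relatives, 2 were called in the knockdown, 0 with quantile normalization and 0 with the replicate block. When 1 library was left out it was 0 to 4, and the 22 called in the overexpression became 13 to 17. Of all genes, 72 were called in the knockdown, 25 with quantile normalization, 3 with the replicate block and 0 to 609 when 1 library was left out (609 without shGPD1L replicate 3); in the overexpression 2740 became 1550 to 1980. Where the count of all genes was 0, without shNC replicate 2 or 3, limma gave 1408 and 1126 genes at an unadjusted p under 0.05, of which 2 and 2 were among the 6 clock genes. NPAS2 in the knockdown ran from -0.338 to 0.0677 when 1 library was left out and changed sign without shGPD1L replicate 2, at 0.0677; the other changes of the 6 genes kept their sign in every alternative run, NFIL3 in the knockdown coming to -0.01 at its smallest. NPAS2 in both tables and NFIL3 in the knockdown could not be fitted at the 5 FPKM filter, being below it. The replicate numbers are shared by the groups. Deviations from the group means correlated at -0.0155, -0.18 and -0.163 between libraries of the same number in the knockdown. In the overexpression these correlations were 0.0222, -0.0607 and -0.0363. Between unlike numbers they ran from -0.0689 to 0.25 and from -0.0331 to 0.0709. With so few libraries per group, these values cannot decide whether the numbers stand for a pairing. The scalings moved the median change of all genes to between -0.0223 and 0.00337 in the knockdown and 0.00682 and 0.0697 in the overexpression. The causes were not tested. Depth is unknown, so what it limits was not computed for any of the 6 genes.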
